A study of Mus musculus with 18 samples.

Results

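The circular RNAs (circRNAs) described here are those of short genomic span: the distance on the chromosome from the first to the last base of the circle, introns included, was below the median of 4454 bp over all circRNAs of the deposited table. They number 237 of 474 and span 143 to 4402 bp, with a median of 1474 bp. The remaining 237, called long-span below, span 4506 to 189347 bp, with a median of 10922 bp. The members nearest to the limit were circRNAs of Etv6 (4402 bp, 0.650 CPM on average) and Mob1a (4369 bp, 0.197 CPM), and just outside it were those of Alg6 (4506 bp, 0.422 CPM) and Ddi2 (4510 bp, 0.200 CPM). Levels are in CPM, back-splice reads as scaled per library by the authors.

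Livers of 18 male C57BL/6 mice were sequenced after removal of ribosomal RNA, 6 in each of 3 groups of 15 treated animals, all bought at 6 weeks of age; no digestion of linear RNA is named. Control mice were injected with corn oil and given double distilled water by mouth every day. Cirrhosis mice were injected with carbon tetrachloride (CCl4), a liver toxin, as a 10% mixture in corn oil, and were given the same water. Cirrhosis-PTH mice were injected with the same CCl4 mixture and dosed by mouth with Pien Tze Huang (PTH), a traditional Chinese remedy, every day at 0.25 mg per g. All injections were of 10 µl per g, 2 times a week, and treatment lasted 12 weeks. In whole liver a fall in the number of cells of a type and a fall in the RNA of each cell cannot be told apart.

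A circRNA forms when the spliceosome joins the 3' end of an exon back to the 5' end of the same exon or of an earlier one, which leaves a closed RNA without cap or poly(A) tail. Sequencing detects it through reads across this back-splice junction, which linear messenger RNA does not contain. Back-splicing is favoured by long introns beside the circle and by repeats in them that pair with each other, and because circles resist exonucleases they can accumulate in tissues whose cells divide rarely, such as liver.

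The shortest circles show how little of a gene such an RNA can hold, and several of them are also among the circRNAs that differed most between groups. They are printed 5' to 3' from the first base of the circle, read from the GENCODE M21 transcripts of GRCm38, with the 10 bases at each end in capitals: in the circle, the last capital is joined to the first. Introns inside the span are taken as removed.
Ube2g2 exons 2 to 3 (chr10:77630726-77630894, plus strand, 82 nt): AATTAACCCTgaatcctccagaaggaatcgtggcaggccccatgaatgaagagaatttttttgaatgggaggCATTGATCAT
Fgd6 exons 4 to 5 (chr10:94089577-94089762, plus strand, 99 nt): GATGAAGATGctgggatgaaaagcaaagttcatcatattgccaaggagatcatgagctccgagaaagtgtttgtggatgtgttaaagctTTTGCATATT
Tle1 exons 5 to 6 (chr4:72169122-72170770, minus strand, 138 nt): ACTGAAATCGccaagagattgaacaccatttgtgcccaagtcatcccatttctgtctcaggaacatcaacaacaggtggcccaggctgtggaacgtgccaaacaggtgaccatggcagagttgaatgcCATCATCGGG
Hpn exons 3 to 4 (chr7:31108965-31109192, minus strand, 144 nt): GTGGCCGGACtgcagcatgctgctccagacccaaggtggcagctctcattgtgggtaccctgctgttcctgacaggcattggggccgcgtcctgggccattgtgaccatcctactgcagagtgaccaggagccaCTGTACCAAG
Pabpn1 exon 6 (chr14:54897121-54897272, plus strand, 152 nt): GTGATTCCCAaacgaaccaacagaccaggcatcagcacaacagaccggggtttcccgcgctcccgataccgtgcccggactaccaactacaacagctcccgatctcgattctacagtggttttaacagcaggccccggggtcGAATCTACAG
Ndufs1 exon 16 (chr1:63148396-63148571, minus strand, 176 nt): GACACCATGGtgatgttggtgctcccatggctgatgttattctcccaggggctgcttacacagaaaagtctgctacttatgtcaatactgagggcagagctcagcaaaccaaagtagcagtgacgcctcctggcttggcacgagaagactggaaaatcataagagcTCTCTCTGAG

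For longer members on which the group comparisons turn, the back-splice junction itself is given. The 20 bases before the join are in lower case and the 20 bases after it, which begin the circle's first exon, are in capitals.
Snx5 exons 6 to 9 (chr2:144255340-144257993, minus strand): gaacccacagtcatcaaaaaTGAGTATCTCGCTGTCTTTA
Adgre1 exons 11 to 12 (chr17:57419322-57420524, plus strand): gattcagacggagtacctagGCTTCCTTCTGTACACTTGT
Adgre1 exons 6 to 7 (chr17:57406834-57408495, plus strand): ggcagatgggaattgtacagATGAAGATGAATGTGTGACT
Prim2 exons 6 to 7 (chr1:33628395-33630433, minus strand): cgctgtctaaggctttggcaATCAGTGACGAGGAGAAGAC
Dock8 exons 3 to 4 (chr19:25061108-25065459, plus strand): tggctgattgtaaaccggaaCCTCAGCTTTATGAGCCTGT
Gab1 exon 2 (chr8:80800101-80800395, minus strand): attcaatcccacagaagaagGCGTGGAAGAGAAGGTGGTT

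Short span went with few exons and with shorter neighbouring introns. Both ends lay at exon ends of 1 transcript in 217 of the 237 members, and 229 members came from protein-coding genes. Of the 217, 17 were a single exon, 139 had 2 exons, 49 had 3 and 12 had 4 or 5. Among the 218 long-span circRNAs placed in the same way, 1 was a single exon, 53 had 2 exons and 94 had 4 or more. The intron before the circle had a median length of 5485 bp and the one after it 4993 bp, against 18942.5 and 15434.5 bp beside long-span circRNAs. The extremes were far apart: the Pabpn1 exon 6 circle follows an intron of 81 bp and the Zcchc7 exons 3 to 5 circle one of 131058 bp. Long introns also precede the exon 2 circles of Gab1 (79136 bp) and Pvt1 (68946 bp). Since span includes the exons and introns inside the circle, part of the difference in exon number follows from the way the members were chosen. The introns beside the circle lie outside the span, and their difference in length was not tested.

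The spliced length differed less than the span, by which the members were chosen. Members held a median of 278 nt of exon sequence (82 to 1216 nt), against 348 nt in long-span circRNAs (117 to 5772 nt). At the median 19.0% of a member's span was exon and 3.55% of a long one. Span is the divisor of this percent, so part of that difference follows from the way the members were chosen. Spliced length was under 200 nt in 39 members and under 100 nt in 2, those of Ube2g2 and Fgd6 printed above. The longest member was the 1216-nt circle of Crebrf exons 3 to 4, followed by the 1099-nt exon 2 circle of Hipk3, a kinase gene widely studied as a circRNA host. Coding exons alone made up 191 of the 217 members (88.0%) and 170 of the 218 long-span circRNAs (78.0%). The circle began at exon 2 in 63 members (29.0%) and in 109 long-span circRNAs (50%). Spliced length was a multiple of 3 in 78 of 217 members (35.9%). Median GC content was 47.2% in members and 45.0% in long-span circRNAs. These are descriptions of the listed circRNAs, without a test.

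**Figure D1:**
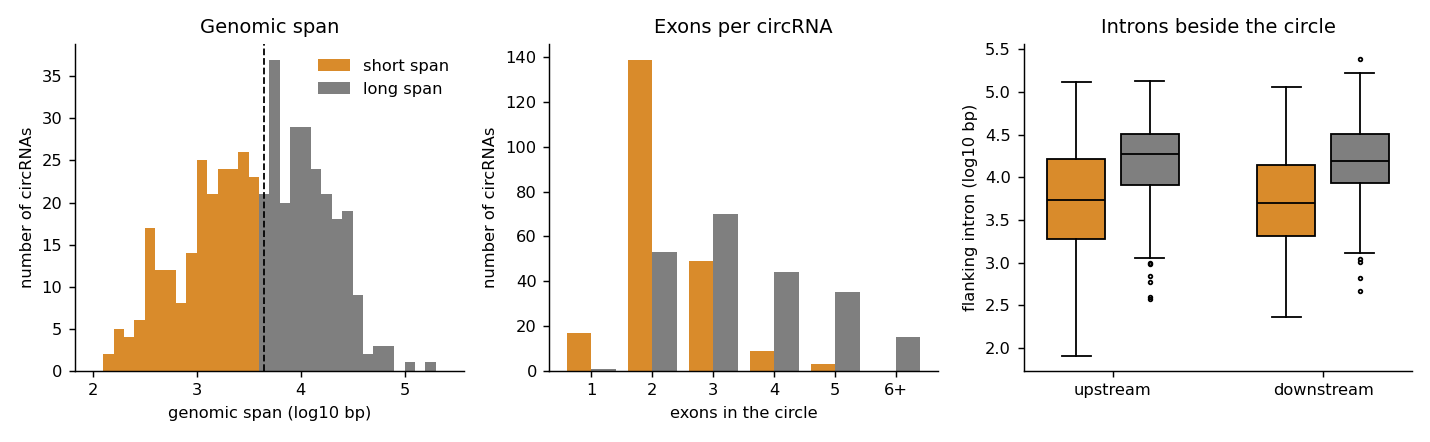
Genomic span (log10 bp; the dashed line is the median), exons per circRNA, and length of the introns beside the circle (log10 bp; line at the median, box over the quartiles, whiskers to 1.5 times the box) for short-span (orange) and long-span (grey) circRNAs. Most short-span circRNAs placed in 1 transcript, 139 of 217, have 2 exons, and their neighbouring introns have medians of 5485 bp (upstream) and 4993 bp (downstream).

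The shortest and the longest members had similar levels. The mean over the 18 libraries ranged from 0.0992 to 3.27 CPM with a median of 0.396 CPM, against 0.350 CPM in long-span circRNAs, and 34 members and 29 long-span circRNAs reached 1 CPM. Across the 237 members, Spearman's rho of span with mean CPM was -0.04; members of 1 gene and all members of a library share depth, and rho is given as a description. The 60 members with spans up to 655 bp had a median of 0.365 CPM and the 59 with spans of 2609 bp or more one of 0.402 CPM. The 17 single-exon circles stood higher, at a median of 0.548 CPM, and carried 10.9 ± 1.52% of the members' CPM in a library (mean ± SD, n = 18).

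The most abundant member came from a gene of protein glycosylation. A circle of exons 6 to 7 of Alg12, a mannosyltransferase of the N-glycan pathway (chr15:88811297-88812159), had 3.27 CPM over all libraries. Its lowest, median and highest values were 2.11, 2.58 and 7.10 CPM in Control, 1.42, 3.05 and 4.93 in Cirrhosis, and 0.820, 3.25 and 5.24 in Cirrhosis-PTH. The groups overlapped throughout, and limma's log2 difference of Cirrhosis from Control was -0.05 (95% interval -1.03 to 0.93). Abundant members also included circles of Ttc39c (2.88 CPM), of the long noncoding RNA gene Pvt1 (2.68), of Ogdh, a subunit gene of the oxoglutarate dehydrogenase of the citric acid cycle (2.58), of the transcription factor gene Nfix (2.41), of the Mediator subunit gene Med13l (2.25) and of the gamma-secretase activating protein gene Gsap (1.81). The circles of Pvt1, Nfix and Med13l are exon 2 alone. Med13l stood between 1.53 and 2.37 CPM in the 6 Control libraries, a narrow range, and between 1.81 and 5.32 CPM in Cirrhosis.

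In all 18 libraries 11 members were above 0, as were 15 long-span circRNAs. Among these are the members of Alg12, Pvt1, Ogdh, Med13l, Fgd6 (1.7 CPM), the cyclin-dependent kinase gene Cdk17 (1.63), the cohesin acetyltransferase gene Esco1 (1.59), the membrane contact site gene Vapa (1.56) and Cth (1.03), which encodes the cysteine-forming enzyme cystathionine gamma-lyase, and a member at chr1:139992106-139994254 that lies inside no single annotated gene (1.23 CPM). The 99-nt Fgd6 circle is the second shortest in spliced length and yet was read in every library, at 0.306, 0.673 and 3.26 CPM (lowest, median and highest) in Control, 0.731, 1.62 and 3.22 in Cirrhosis, and 0.820, 1.89 and 4.96 in Cirrhosis-PTH. Its groups overlapped. At the other end, 41 members were above 0 in 9 libraries, the fewest of any listed circRNA.

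Depth was low for single members. Their 4266 values came from 19163 back-splice reads with a median of 2 reads per value, 30.8% of the values were 0, 42.6% at most 1 read, and 12.7% at least 10 reads. Libraries held 794 to 8431 recovered reads over all circRNAs. By the authors' scaling 1 read was worth 0.0343 to 0.370 CPM, and the floor of 3 reads lay at 0.103 to 1.11 CPM. The reads carry no molecular identifiers, and floors cover counting error only. The standard error of a log2 difference between groups had a median of 0.694 over members.

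No difference between groups in the summed level of short-span circRNAs, or in their share of the signal, was larger than the spread between mice. The summed level was 129 ± 50.6 CPM in Control and 162 ± 48.5 CPM in Cirrhosis (mean ± SD, n = 6 each). With PTH it was 123 ± 45.6 CPM. Single libraries ran from 77.1 to 210 CPM in Control, from 102 to 220 with CCl4 and from 44.6 to 160 with CCl4 and PTH, and the groups overlapped. Exact 2-sided permutation tests of the group means, adjusted over 3 comparisons, gave p = 0.383 for the effect of CCl4, 0.383 for that of PTH added to it and 0.838 for both against Control (smallest p the unadjusted test allows, 0.00216). The share of the summed CPM held by members was 49.1 ± 2.76% in Control, 49.5 ± 2.26% with CCl4 and 49.3 ± 2.45% with CCl4 and PTH, with an exact permutation p of 0.913 after adjustment in each comparison. Within a library, members had 1.92 CPM less than long-span circRNAs on average (SD 11.8, n = 18), and were higher in 8 libraries and lower in 10 (2-sided sign-flip permutation p = 0.501).

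The number detected differed between groups by less than its spread. Of the 237 members, 159 ± 21.4 were above 0 per Control library, 165 ± 30.5 per Cirrhosis library and 168 ± 30.5 per Cirrhosis-PTH library (n = 6 each), with an exact permutation p of 0.885 after adjustment in each comparison. Thinned to the 794 reads of the shallowest library, the numbers were 135 ± 8.5, 133 ± 19.2 and 133 ± 13.2. Within a library, the percent detected was 0.516 points higher in members than in long-span circRNAs (SD 5.41), higher in 10 libraries and lower in 7 (2-sided sign-flip permutation p = 0.709).

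**Figure D2:**
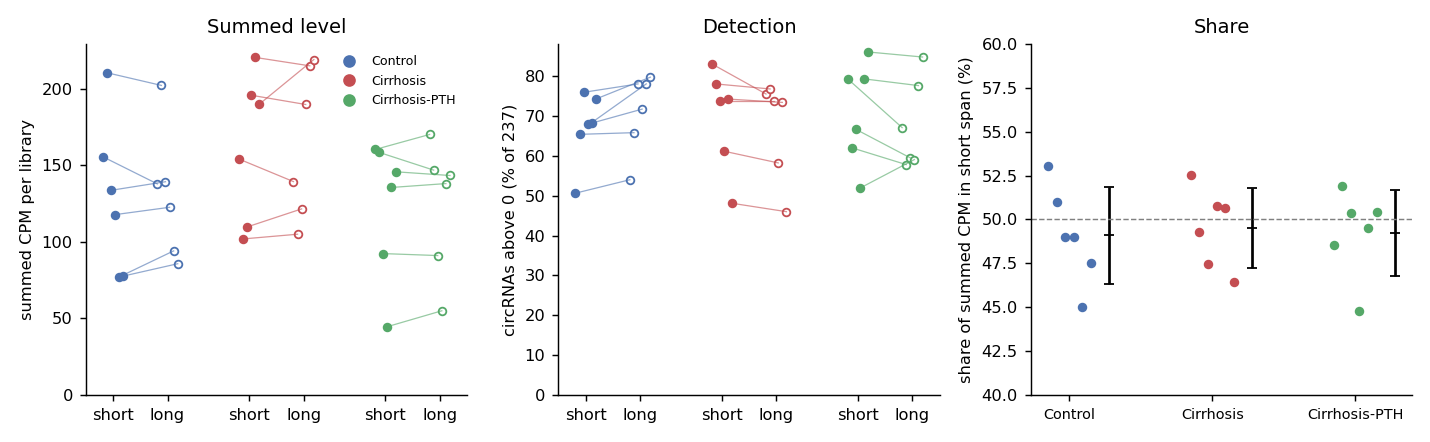
Summed CPM (left) and percent of circRNAs above 0 (middle) of short-span (filled) and long-span (open) circRNAs, with a line joining the 2 values of a library, and the percent of summed CPM in short-span circRNAs (right; points are libraries, bars mean and SD, n = 6 a group, axis from 40 to 60%). Filled and open points of a library lie close together in all 3 groups, and the group means of the share lie between 49.1 and 49.5%.

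Cirrhosis was compared with Control for the effect of CCl4 on single circRNAs. Among the members of smallest p, levels were higher in Cirrhosis for circles from Rock1, a kinase gene of the actin cytoskeleton, from Snx5, which encodes a sorting nexin of endosome transport, from Adgre1, the gene of the macrophage surface protein F4/80, and from the noncoding RNA gene Pvt1, and lower for the 82-nt Ube2g2 circle. None passed an adjusted p of 0.05 in limma, where 0% of all 474 circRNAs did. At an unadjusted p under 0.05, limma counted 35 of 237 members (14.8%; 12.2% of all circRNAs), 24 higher (8.86% of all) and 11 lower (3.38% of all) in Cirrhosis. The split was the opposite, 7 higher and 28 lower, after median centring, which sets each library to the median of the 26 circRNAs found everywhere. It was 12 and 12 when scaled to summed CPM, 7 and 6 of 13 in edgeR on recovered reads, and 8 and 10 of 18 in DESeq2. Groups did not overlap for 0 members (0.211% of all circRNAs). The median log2 difference was 0.20 over members and 0.12 over all circRNAs, and 58.2% of members lay above 0. This direction, too, depended on the scale: after median centring 32.1% lay above 0 and the median was -0.38, while all 474 had medians of 0.12 before and -0.46 after centring.

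Of the members higher in Cirrhosis, the Snx5 circle was among several whose groups were nearly apart. The Snx5 circle of exons 6 to 9 had 0, 0.0959 and 0.592 CPM (lowest, median and highest) in Control and 0.518, 1.27 and 2.74 CPM in Cirrhosis. Of the Cirrhosis libraries, 5 lay above every Control library. Its log2 difference was 2.40 (95% interval 0.96 to 3.84, limma adjusted p = 0.119). The Control mean of 0.173 CPM became 0.0893 without Control 2.

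The macrophage gene Adgre1 gave 2 members from separate parts of its transcript. Its exons 11 to 12 circle had 0, 0 and 0.575 CPM in Control and 0.184, 1.01 and 3.84 in Cirrhosis (log2 difference 2.37, limma adjusted p = 0.119), with 4 Cirrhosis libraries above every Control library. Its Control mean was 0.157 CPM and 0.0739 without Control 6. The exons 6 to 7 circle had 0, 0 and 0.306 CPM in Control and 0, 0.751 and 1.28 in Cirrhosis (1.78, adjusted p = 0.229), and 5 Cirrhosis libraries lay above every Control library. The Control mean of 0.0934 CPM was 0.051 without Control 7. Both were 0 in most Control libraries and above 0 in most Cirrhosis libraries. The third macrophage member, exons 3 to 4 of Mertk, a receptor tyrosine kinase gene of phagocytes, had medians of 0.223 and 1.04 CPM (1.04, adjusted p = 0.580).

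For Rock1, the Cirrhosis mean leaned on a single library. Its circle of exons 7 to 9 (chr18:10129305-10132272) had 0, 0.0959 and 0.607 CPM in Control and 0.518, 1.41 and 6.64 in Cirrhosis, a log2 difference of 2.63 (95% interval 1.23 to 4.03) with the smallest limma adjusted p among members, 0.109. The mean of Cirrhosis was 2.08 CPM and 1.17 without Cirrhosis 6, which narrows the difference of means. The mean of Control was 0.190 CPM and 0.106 without Control 3, which widens that difference. Over 30 other settings the adjusted p of Rock1 ran from 0.0333 to 0.430. It was under 0.05 in 2 of them, a filter at a mean of 0.5 CPM (0.0333) and the fit without Control 3 (0.0488).

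Pvt1, whose transcript is a long noncoding RNA beside Myc, had a circle whose Cirrhosis libraries lay far apart. Its exon 2 circle (chr15:62107148-62107465) had 0.408, 1.19 and 1.67 CPM in Control, and in Cirrhosis 3 libraries at 1.04 to 2.68 CPM and 3 at 9.13 to 9.43 CPM. The log2 difference was 1.81 (limma adjusted p = 0.157).

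Prim2, the gene of the large primase subunit that starts DNA synthesis, gave no read in any Control library. It had 21 reads in 5 of the 6 Cirrhosis libraries, at 0, 0.527 and 0.922 CPM (lowest, median and highest). Pooled over the group this is at least 6.97-fold higher than the floor of 3 reads over all Control libraries, or at least 4.89-fold with any 1 Control library left out (limma adjusted p = 0.222).

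Elovl5, a fatty acid elongase gene, and Dock8, a guanine nucleotide exchange factor gene of immune cells, had circles at higher levels in Cirrhosis as well. The Elovl5 circle of exons 2 to 3 (chr9:77957141-77961053) had medians of 0.0759 CPM in Control and 1.01 in Cirrhosis (2.06, limma adjusted p = 0.222). The Dock8 circle of exons 3 to 4 had 2 reads in the 6 Control libraries and 29 in 5 Cirrhosis libraries (1.92, adjusted p = 0.222). The Control means of both moved by over 1.5 times when the highest library was left out, to 0.0643 CPM without Control 7 and 0.0303 CPM without Control 2.

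Ube2g2, which encodes a ubiquitin-conjugating enzyme of endoplasmic reticulum-associated degradation, had the smallest p among members lower in Cirrhosis. Its 82-nt circle had 0.816, 1.69 and 3.26 CPM in Control and 0, 0.413 and 1.28 CPM in Cirrhosis. All Control libraries but 1 were above all Cirrhosis libraries, and 5 of the 6 Cirrhosis libraries were below every Control library, the exception being Cirrhosis 5. The log2 difference was -2.14 (95% interval -3.51 to -0.76, limma adjusted p = 0.157). Over 30 other settings the adjusted p ran from 0.0249 with DESeq2 to 0.430, and it was under 0.05 in 2, DESeq2 and median centring. The Cirrhosis mean of 0.431 CPM was 0.262 without Cirrhosis 5.

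Hnrnpu, Pabpn1 and Uox were lower in Cirrhosis as well. The exons 4 to 6 circle of Hnrnpu, a nuclear RNA-binding protein gene (chr1:178323134-178325313), had 1.43, 1.76 and 2.37 CPM in Control and 0, 0.559 and 2.95 in Cirrhosis (-1.78, limma adjusted p = 0.234; 0.0485 to 0.799 over 30 other settings), and 5 Cirrhosis libraries were below every Control library while Cirrhosis 6 was above all. Its Cirrhosis mean of 0.879 CPM was 0.465 without Cirrhosis 6, and its adjusted p was under 0.05 in 1 setting, median centring. The Pabpn1 exon 6 circle, from the gene of the nuclear poly(A)-binding protein, had 0.192, 1.04 and 1.48 CPM in Control and 0, 0 and 0.804 in Cirrhosis (-1.80, adjusted p = 0.236), with reads in 2 Cirrhosis libraries and a mean of 0.24 CPM there, or 0.127 without Cirrhosis 1. Uox, the gene of urate oxidase, had medians of 0.447 and 0.0647 CPM (-1.49, adjusted p = 0.381), and its Control mean of 1.04 CPM was 0.421 without Control 2.

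A member at Cfhr3, a pseudogene of the complement factor H family (chr1:139593754-139597732, minus strand, 1 end at an exon end), is described because of its zeros and was chosen after its values were seen. It had 17 reads in 4 Control libraries (0.502 ± 0.467 CPM, mean ± SD, n = 6), 0 reads in all 6 Cirrhosis libraries and 30 reads in 5 libraries with PTH (0.280 ± 0.270 CPM). Pooled, Control was at least 5.69-fold and Cirrhosis-PTH at least 5.44-fold higher than the floor of 3 reads over the Cirrhosis libraries (limma adjusted p = 0.229 and 0.624). Reads of this family can be split between near-identical copies, so the assignment is uncertain.

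**Figure D3:**
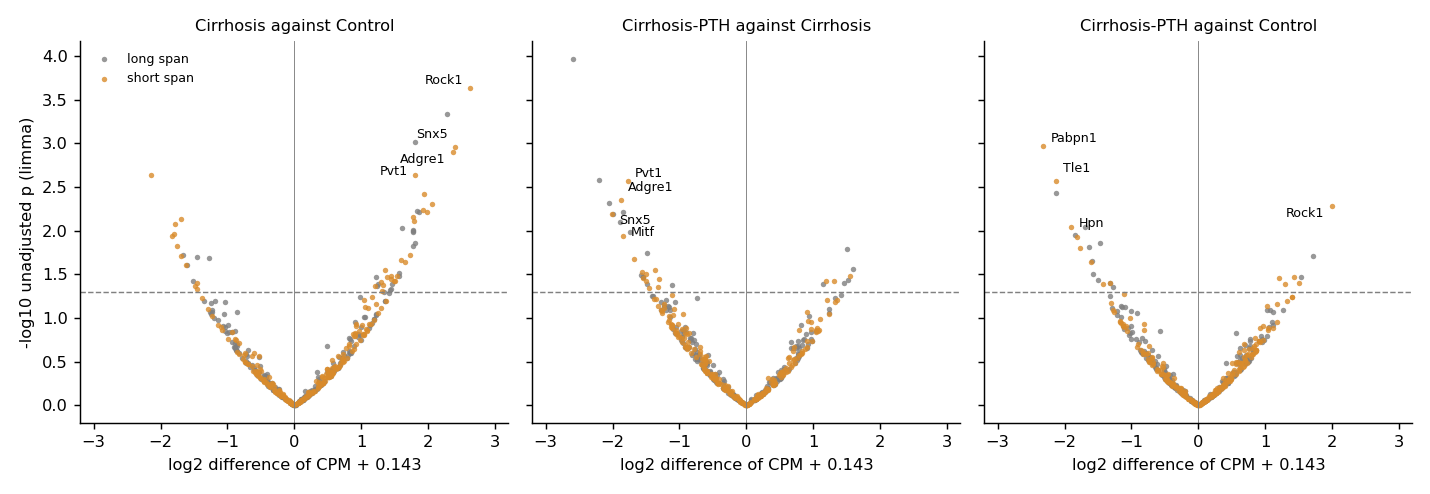
Log2 difference of CPM + 0.143 against -log10 of limma's unadjusted p in the 3 comparisons, for short-span (orange) and long-span (grey) circRNAs, with the dashed line at an unadjusted p of 0.05 and the 4 members of smallest p named. No point passes an adjusted p of 0.05; members at an unadjusted p under 0.05 number 35, 16 and 13 from left to right.

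Cirrhosis-PTH was compared with Cirrhosis for the effect of PTH added to CCl4. The members with the smallest p were lower with PTH: those of Pvt1, Adgre1, Snx5, Mitf and Gab1. None passed an adjusted p of 0.05 in limma (0% of all circRNAs did). At an unadjusted p under 0.05 limma counted 16 members (6.75%; 7.17% of all), 3 higher (1.69% of all) and 13 lower (5.49% of all). The split turned to 22 higher and 3 lower of 25 after median centring, 11 and 7 of 18 when scaled to summed CPM and 7 and 3 of 10 in edgeR, and was 8 and 12 of 20 in DESeq2. The share of members at that limit was near that of all circRNAs. The median log2 difference was -0.17 in members and in all circRNAs, and 42.6% of members lay above 0, against 64.6% with a median of 0.35 after median centring. This comparison and the previous one share the Cirrhosis libraries, so a library high in Cirrhosis enters both.

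The Snx5 circle was the member whose groups did not overlap. With PTH it had 0, 0.302 and 0.514 CPM, against 0.518 to 2.74 CPM in Cirrhosis. In CPM every library with PTH was thus below every Cirrhosis library, by a narrow margin at the edge. There, Cirrhosis 3 and Cirrhosis-PTH 3 had 4 reads each, so only the scaling of the libraries set them apart. This held for 1 member and for 0.422% of all circRNAs. The log2 difference was -2.0 (95% interval -3.44 to -0.56, limma adjusted p = 0.386).

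Pvt1, which showed the smallest p, had 0.373, 1.31 and 2.36 CPM with PTH, so none of the 6 libraries reached the 3 high Cirrhosis libraries (-1.78, limma adjusted p = 0.386). The Adgre1 circle of exons 6 to 7 had 0, 0.0171 and 0.175 CPM with PTH against a median of 0.751 CPM in Cirrhosis (-1.88, adjusted p = 0.386), on 4 reads in the 6 libraries. Its mean with PTH of 0.0614 CPM was 0.0386 without Cirrhosis-PTH 1. For exons 11 to 12 the median was 0.648 CPM with PTH and 1.01 in Cirrhosis (-1.26, adjusted p = 0.634).

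Mitf, a transcription factor gene, and Gab1, an adaptor gene of receptor tyrosine kinases, were also lower with PTH. The Mitf circle of exons 6 to 7 (chr6:98003887-98006197) had 0.212, 0.597 and 2.03 CPM in Cirrhosis and 0, 0 and 0.309 with PTH (-1.84, limma adjusted p = 0.491). Its Cirrhosis mean of 0.747 CPM was 0.491 without Cirrhosis 6, and its mean with PTH of 0.0911 CPM was 0.0477 without Cirrhosis-PTH 6. The Gab1 exon 2 circle had 0.483, 1.15 and 1.48 CPM in Cirrhosis and 0, 0.222 and 0.526 with PTH, 5 of 6 below every Cirrhosis library (-1.69, adjusted p = 0.624). The differences of Cirrhosis from Control were 0.73 for Mitf (-0.20 to 1.21 over other settings) and 1.29 for Gab1 (limma adjusted p = 0.772 and 0.487).

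Further members lower with PTH were those of the phosphatidylinositol transfer protein gene Pitpnb, with medians of 1.44 and 0.434 CPM (-1.56, limma adjusted p = 0.624), of Dock8, with 0.819 and 0 CPM (-1.50, adjusted p = 0.624), and of the septin gene Sept10, with 0.341 and 0 CPM (-1.37, adjusted p = 0.624). The mean of Sept10 with PTH was 0.0551 CPM, or 0.0318 without Cirrhosis-PTH 6. Dock8 rested on 2 libraries with PTH, and its mean of 0.267 CPM was 0.0823 without Cirrhosis-PTH 5. Among the 3 members higher with PTH was Ttc39c, with medians of 1.90 and 3.79 CPM (1.19, adjusted p = 0.624). The Ube2g2 circle lay between the other groups with PTH, at 0.224, 1.04 and 1.58 CPM (1.06, adjusted p = 0.646).

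**Figure D4:**
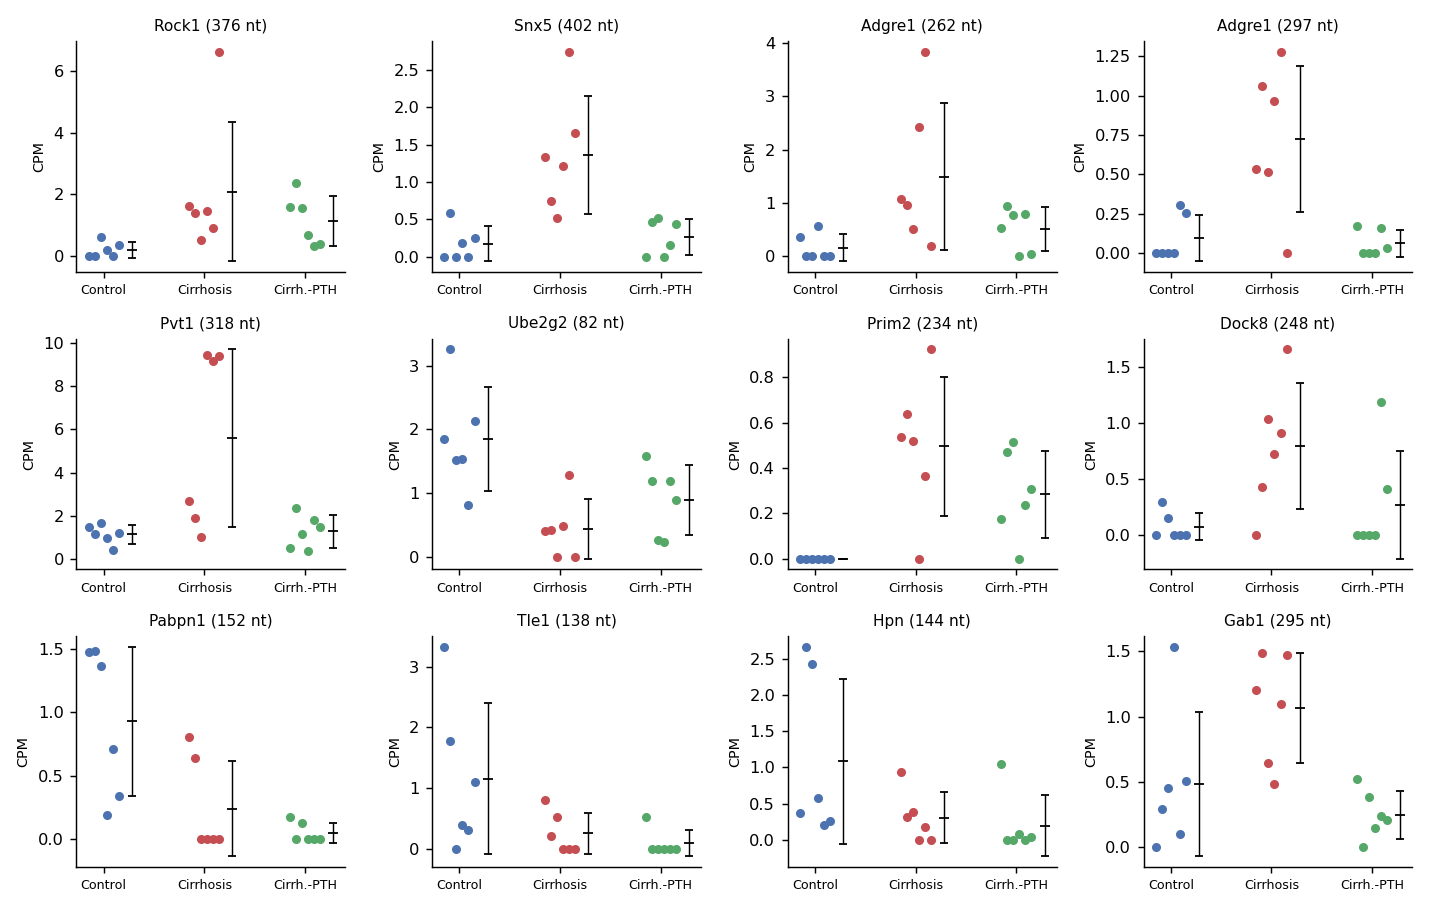
CPM per library of 12 short-span circRNAs, with the spliced length in the title; bars give mean and SD (n = 6 a group). The Snx5 libraries of Cirrhosis-PTH, up to 0.514 CPM, lie below those of Cirrhosis, from 0.518 CPM, and Prim2 is 0 in all Control libraries. At that edge of Snx5, Cirrhosis 3 and Cirrhosis-PTH 3 have 4 reads each.

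Cirrhosis-PTH was compared with Control to describe what differed after CCl4 with PTH. The members with the smallest p were the circles of Pabpn1, Tle1, Hpn and Atxn2, lower than in Control, and that of Rock1, higher. None passed an adjusted p of 0.05 in limma (0% of all circRNAs did). At an unadjusted p under 0.05 limma counted 13 members (5.49%; 5.27% of all), 5 higher (1.48% of all) and 8 lower (3.8% of all). The split was 10 higher and 11 lower when scaled to summed CPM, 5 and 5 in edgeR, and 2 and 12 in DESeq2. The median log2 difference was 0.03 in members and -0.01 in all circRNAs, and 53.2% of members lay above 0 (48.1%, with a median of -0.03, after median centring).

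Pabpn1 was the member whose groups did not overlap here. Its 152-nt exon 6 circle had 0.192, 1.04 and 1.48 CPM in Control and 0, 0 and 0.175 with PTH, on 30 reads against 2. At the edge, Control 6 and Cirrhosis-PTH 1 had 1 read each, so only the scaling of the libraries set them apart. Its mean with PTH of 0.0506 CPM was 0.0257 without Cirrhosis-PTH 1. Non-overlap again held for 1 member and for 0.422% of all circRNAs. The log2 difference was -2.32 (95% interval -3.70 to -0.93) with a limma adjusted p of 0.506, and 0.0534 to 0.795 over 29 other settings.

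The Tle1 circle of 138 nt, from a gene of a Groucho-family transcriptional corepressor, was read in 5 Control libraries (0, 0.744 and 3.33 CPM) and in 1 library with PTH, at 0.526 CPM (-2.13, limma adjusted p = 0.587). Its Control mean of 1.15 CPM was 0.714 without Control 1. The Hpn circle of 144 nt, from the gene of the hepatocyte membrane protease hepsin, had 0.204, 0.472 and 2.66 CPM in Control and 0, 0.0171 and 1.05 with PTH (-1.90, adjusted p = 0.688), and its mean with PTH of 0.193 CPM was 0.0218 without Cirrhosis-PTH 1. The exons 19 to 20 circle of Atxn2, an RNA-binding protein gene (chr5:121802081-121803080), had 1.02, 1.38 and 2.28 CPM in Control and 0, 0.409 and 1.58 with PTH, 5 of 6 below every Control library (-1.81, adjusted p = 0.688), and its mean with PTH of 0.556 CPM was 0.352 without Cirrhosis-PTH 6. These 4 circles were lower in Cirrhosis than in Control as well, with log2 differences of -1.80, -1.46, -1.28 and -1.61, and both comparisons use the same Control libraries.

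Zcchc7, a gene of nuclear RNA surveillance, had a log2 difference of -1.61 (limma adjusted p = 0.778) that leaned on Control 1, at 4.43 CPM: the Control mean was 1.0 CPM and 0.317 without it. Rock1 was higher than in Control also with PTH, at 0.318, 1.11 and 2.36 CPM (1.99, adjusted p = 0.623). Prim2 had 19 reads in 5 libraries with PTH, at least 3.43-fold above the floor of 3 reads over the Control libraries, or at least 2.41-fold with any 1 of them left out (1.42, adjusted p = 0.815).

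None of the members in the lists of metabolic genes passed an adjusted p of 0.05. Long-span circRNAs numbered 6 in the lipid list, 5 in the amino acid list, 4 in the glucose list and 6 in the xenobiotic list. The counts of higher and lower in each list are of fitted differences whatever their p, and adjusted p was under 0.05 in 0 members of each. Lipid and sterol metabolism had 8 members from 7 genes, 7 higher and 1 lower in Cirrhosis than in Control (5 higher after centring) with a median log2 difference of 1.0 beside 0.12 over all circRNAs. Acaca, the acetyl-CoA carboxylase gene, had medians of 0.192, 0.734 and 0.661 CPM in Control, Cirrhosis and Cirrhosis-PTH. Amino acid, nucleotide and urea cycle metabolism had 4 members, 1 higher and 3 lower in Cirrhosis (1 higher after centring). Its Cth circle stood at medians of 1.24, 0.563 and 0.911 CPM, and that of the glutaminase gene Gls2 at 0.492, 0.736 and 0.611 CPM.

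Glucose and mitochondrial energy metabolism had 4 members, 2 higher and 2 lower in Cirrhosis (1 higher after centring). Among them the 176-nt exon 16 circle of Ndufs1, a subunit gene of respiratory complex I, had medians of 1.23 CPM in Control, 1.18 in Cirrhosis and 0.991 with PTH, and the insulin receptor gene Insr had 0.0425, 0.212 and 0.348 CPM. The Ogdh circle had medians of 2.36, 2.86 and 1.73 CPM. Xenobiotic metabolism and hepatobiliary transport had 5 members, 3 higher and 2 lower in Cirrhosis (0 higher after centring). Of these, 2 came from Abcc2, the canalicular multidrug transporter gene, with means over all libraries of 0.966 CPM for exons 5 to 6 and 0.372 CPM for exons 12 to 16, and 1 from the bile salt pump gene Abcb11 at 0.450 CPM. Secreted plasma proteins and proteases had 2 members, from Hpn and from the plasminogen gene Plg, both lower in Cirrhosis (Plg from -0.65 to 0.36 over other settings), and extracellular matrix had 1, from the aspartate hydroxylase gene Asph, with medians of 1.26, 1.32 and 1.21 CPM.

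The lists of signalling, chromatin, ubiquitin, RNA processing and cell cycle genes held 4 to 10 members each. Long-span circRNAs in them numbered 6, 8, 6, 11 and 5 in that order, and 20 came from widely studied hosts. Growth factor, TGF-beta, Hippo and Wnt signalling had 10 members, 6 higher and 4 lower in Cirrhosis (3 higher after centring), among them Rock1, the EGF receptor gene Egfr with medians of 1.03, 1.04 and 1.55 CPM, and the activin receptor gene Acvr2a with 0.389, 0.788 and 0.695 CPM. Chromatin genes had 7, 5 higher and 2 lower (0 higher after centring), with the histone acetyltransferase gene Ep300 at medians of 0.551, 0.792 and 0.50 CPM. Ubiquitin ligases and deubiquitinases had 7, 4 higher and 3 lower (3 higher after centring), with Ube2g2 among the lower ones. RNA processing and decay had 9, 3 higher and 6 lower in Cirrhosis (3 higher after centring), with a median of -0.24 beside 0.12 over all circRNAs. DNA replication, repair and cell cycle had 4, all higher in Cirrhosis than in Control (2 after centring) and all lower with PTH than in Cirrhosis (3 after centring). Widely studied circRNA hosts had 14 members from 12 genes, 10 higher and 4 lower in Cirrhosis (6 higher after centring).

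Among cell type marker lists, 2 had short-span circRNAs. The macrophage list had 3 members, from Adgre1 and Mertk, all 3 higher in Cirrhosis than in Control and all 3 lower with PTH than in Cirrhosis, with and without centring. Their summed CPM had a lowest, median and highest value of 0, 0.558 and 1.02 in Control, 0.184, 2.56 and 6.76 in Cirrhosis and 0.149, 0.910 and 1.19 with PTH. The circles of Snx5, Rock1, Pvt1, Dock8, Elovl5 and Prim2 were also higher in Cirrhosis than in Control and lower with PTH than in Cirrhosis. They were named for a small p in the first of these comparisons, and both comparisons use the same Cirrhosis libraries. How many of all circRNAs had this pattern was not counted. Of these 6, Prim2 and Rock1 changed least with PTH (log2 differences -0.52 and -0.64) and stayed above Control (1.42 and 1.99). Single Cirrhosis libraries differed. Cirrhosis 5, with the highest macrophage sum, had 2.74 CPM of Snx5 and 9.13 of Pvt1. Cirrhosis 6, with the lowest, had 6.64 CPM of Rock1, 9.41 of Pvt1 and 1.66 of Dock8. Of all 18 libraries, Cirrhosis 6 had the fewest circRNAs above 0, 223 of 474, on 2218 recovered reads. Its macrophage sum of 0.184 CPM was 1 read of Adgre1. The part of macrophage number in the group differences was not tested. The hepatocyte list had 1 member, Egfr, and the stellate cell, endothelial, cholangiocyte, lymphocyte and erythroid lists had 0 members.

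Circles of the same gene could have unlike values. Snx5 gave a second member, exons 8 to 9 (chr2:144255340-144255604, 182 nt), that lies inside the circle of exons 6 to 9 and ends at the same base. It had 0.363 ± 0.387 CPM in Control, 0.229 ± 0.322 in Cirrhosis and 0.341 ± 0.468 with PTH (mean ± SD, n = 6), a log2 difference of Cirrhosis from Control of -0.46 (limma adjusted p = 0.842), where the larger circle had 2.40. Whether the 2 differences themselves differ was not tested.

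Of the 223 genes that host a member, 13 host 2 or more, and 20 members share an end with another listed circRNA. At 19 genes both a short-span and a long-span circRNA were listed, and the most abundant short-span one had the higher mean CPM at 11. Atrnl1 exons 22 to 24 had 0.830 CPM and exons 22 to 25, which reach 1 exon further across an intron of 22265 bp, 0.242 CPM, and the first was higher in 15 of 18 libraries. For Rfx7, a transcription factor gene, the order was the opposite: exons 3 to 4 had 0.889 CPM and exons 2 to 4, of long span, 2.27 CPM, with the long one higher in 17 of 18. Hivep1 exon 2 alone, the member of shortest span at 143 bp, had 0.573 CPM and exons 2 to 3, which span 67814 bp, 0.331 CPM.

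**Figure D5:**
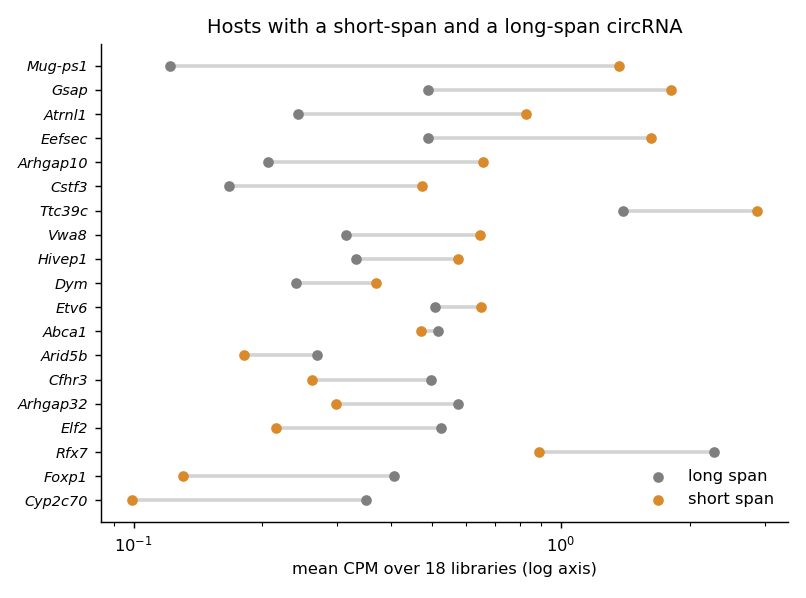
Mean CPM over 18 libraries (log axis) of the most abundant short-span (orange) and long-span (grey) circRNA of the 19 genes with both, ordered by their ratio. The short-span circRNA is the higher at 11 genes, with Mug-ps1 (1.37 against 0.122 CPM) and Cyp2c70 (0.0992 against 0.351 CPM) at the ends of the order.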

How the data were processed

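The authors deposited a table of CPM for 474 circRNAs in 18 libraries, with circRNAs called by CIRI, per the file headers; what the CPM is scaled to and the strand of each circle are not given in the sources used here. HISAT2 2.2.1, StringTie 2.1.5, cutadapt 4.2 and GRCm38 are named in the submitters' processing notes. All values were whole multiples of the worth of 1 read in their library, so back-splice reads could be recovered. Hosts, strand and exons came from GENCODE M21.

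limma 3.58.1 (R 4.3.3) was fitted to log2(CPM + 0.143) of all 474 circRNAs in 1 model over the 3 groups, with Benjamini-Hochberg adjustment over 474. Every adjusted p of a single circRNA is limma's unless another tool is named, and every log2 difference is on that scale, which understates changes of low circRNAs. A bound given as at least a number of times is pooled CPM over a floor of 3 reads in the group at 0. Summed CPM, shares and numbers detected were compared by 2-sided exact permutation of the 6 against 6 libraries. edgeR 4.0.16 and DESeq2 1.42.0 on recovered reads, other pseudocounts, filters, scalings and leaving out each library were alternatives. The model was tested on simulated data.

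circRNAs were named by rule: per comparison the 8 of smallest p, the 8 of highest mean, the 6 of shortest span, those above 0 in all libraries, and up to 3 of highest mean per gene list, where both ends could be placed, and the 2 nearest to the limit of span on each side. The members of Cfhr3, Crebrf, Hipk3, Atrnl1, Rfx7, Mug-ps1 and Cyp2c70, the second circle of Snx5 and the member outside single genes fall outside it and were chosen after their values were seen. Some items are not reported here. The members and lists were chosen with earlier results of these data known.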

Additional observations from a re-analysis of the deposited data

Results flagged for a closer look

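The highest library stood apart from the other 5 by more than Dixon's 95% critical value in 14 of 78 sets of 6 libraries. The sets are 26 circRNAs in 3 groups. Normally distributed values pass that limit in about 1 of 20 groups. CPM of few reads with many zeros is not normally distributed, so that rate cannot be set against these sets. In Control the sets that passed were Alg12 in Control 2 (7.104 CPM), Nfix in Control 2 (6.512 CPM), Zcchc7 in Control 1 (4.434 CPM) and Gab1 in Control 6 (1.534 CPM). In Cirrhosis they were Rock1 in Cirrhosis 6 (6.639 CPM), Med13l in Cirrhosis 4 (5.317 CPM), Zcchc7 in Cirrhosis 4 (2.175 CPM) and Mitf in Cirrhosis 6 (2.029 CPM).

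With PTH, Cirrhosis-PTH 2 stood apart for Med13l and Gsap, at 4.013 CPM each. Cirrhosis-PTH 5 did so for Dock8 (1.191 CPM), Cirrhosis-PTH 1 for Hpn (1.051 CPM) and Tle1 (0.5256 CPM), and Cirrhosis-PTH 4 for Zcchc7 (0.5965 CPM). Zcchc7 had such a library in each of the 3 groups.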

How the results depend on the processing

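Of 5172 values of named circRNAs under the alternatives (174 differences), 5 had an adjusted p under 0.05, in Rock1, Ube2g2 and Hnrnpu, and 65 of the differences took both signs. Among the 24 differences of smallest p, none reversed. Members past an adjusted p of 0.05 in Cirrhosis against Control numbered 1 with a filter at a mean of 0.5 CPM, 2 with median centring and 1 with DESeq2, and 0 to 1 with each library left out; the other comparisons had 0 with each library left out. Members at an unadjusted p under 0.05 numbered 18, 8 and 6 under that filter, in the order Cirrhosis against Control, PTH against Cirrhosis and PTH against Control. The filter keeps 93 members, so these counts cannot be set beside the 35, 16 and 13 of 237. Among all circRNAs it keeps, 28, 16 and 9 were under that limit. The other settings keep all 237 members. In the first comparison edgeR gave 13 (29 of all circRNAs) and DESeq2 18 (38 of all). In the second edgeR gave 10 (24 of all) and median centring 25 (60 of all), and in the third scaling to summed CPM gave 21 (37 of all). With each library left out the counts ran from 24 to 37, 10 to 20 and 9 to 17.

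Within a library, short minus long summed CPM was 1.54 without the most abundant circRNA on each side (permutation p = 0.601), 6.28 for the lowest against the highest quartile of span (permutation p = 0.0504) and -14.2 when short was defined by spliced length (permutation p = 0.0168), and -3.08 to -0.324 with each library left out. By spliced length the difference in percent detected was -0.251 points; it was -0.174 to 1.12 with each library left out. The share differed by -2.82 points for Cirrhosis against Control and 3.78 for PTH against Cirrhosis by spliced length, and by -0.165 for PTH against Control in the lowest quartile of span. The cause was not tested. With each library left out, the share differed by -0.394 to 1.21, -0.875 to 0.631 and -0.654 to 1.05 points, the summed CPM by 21.6 to 49.6, -51.2 to -23.5 and -16.2 to 10.5, and the number detected by -1.47 to 16.6, -7.6 to 11.7 and 1.2 to 18.0. Thinned to equal reads, the number detected differed by -1.92 against Control for Cirrhosis and -1.83 for PTH.

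The replicate block used libraries with shared numbers, which did not pair the samples (correlations of -0.0572 to 0.0817). With it, Cirrhosis against Control differed by -15.4 in summed CPM (permutation p = 0.625) and -1.59 points in share, PTH against Control by -0.205 points in share, and 20 members had an unadjusted p under 0.05, against 19 in the same libraries without the block, a fit added after seeing the data. Depth limits single circRNAs, since 42.6% of values rest on 0 or 1 read.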
